A study of Homo sapiens with 6 samples.

Results

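The genes described here encode the proteasome, the inducible subunits that turn it into the immunoproteasome, and its activators and assembly chaperones. Members were the rows of the deposited table that are typed as protein-coding and have a symbol that starts with PSM, a letter from A to G and a digit. This gave 50 of 60623 genes. Of these, 48 encode proteasome subunits or factors that act on the proteasome, and PSMC3IP (a meiotic recombination factor) and PSME3IP1 (a partner of PSME3) were matched by name only. The libraries were made from total RNA of cells that carry the label Huh7, a line from a human hepatocellular carcinoma. The 3 control libraries are titled NC and labelled WT for genotype, and the 3 others are labelled SRSF10 knockdown, by a hairpin (shSRSF10) in the title of the series. SRSF10 is an SR protein that regulates splicing, and the comparison asks how expression differs when it is lowered. It is not stated if controls received a hairpin, if the knockdown is 1 clone or if replicates came from separate cultures, and the spread behind each p-value may therefore be technical.

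The proteasome is the protease that degrades ubiquitin-tagged proteins in the cytosol and nucleus. Its 20S core is a stack of rings of alpha subunits, which gate the pore, and beta subunits, of which PSMB5, PSMB6 and PSMB7 carry the catalytic sites. The 19S cap recognises and unfolds substrates, with a base that holds the ATPases and a lid that holds the deubiquitinase PSMD14. Interferon and other inflammatory signals induce PSMB8, PSMB9 and PSMB10, which replace PSMB5, PSMB6 and PSMB7 in newly made cores, and PSME1 and PSME2, which form the activator PA28. Such cores are known for making peptides that are loaded on MHC class I molecules. PSMB8 and PSMB9 lie beside the peptide transporter genes TAP1 and TAP2 in the MHC region of chromosome 6.

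Start site sequences are shown for the inducible subunits, for both PA28 genes and for 1 constitutive subunit, because these are the genes whose levels are contrasted in the results. They are RefSeq windows on GRCh38.p14 from 250 bases before to 50 bases after an annotated start, 300 bases each, written 5′ to 3′ on the strand of the gene. Capitals mark each match, on either strand, to GAAA followed by any 2 bases and again GAAA, the core of the interferon-stimulated response element, which interferon regulatory factors bind. RefSeq annotates more than 1 start for some of these genes, and the PSMB8 window is that of its downstream start, the TAP1 window is shown because TAP1 is transcribed away from PSMB9, and overlapping matches run together in capitals.
PSMB8, chr6:32843998-32844297, minus strand: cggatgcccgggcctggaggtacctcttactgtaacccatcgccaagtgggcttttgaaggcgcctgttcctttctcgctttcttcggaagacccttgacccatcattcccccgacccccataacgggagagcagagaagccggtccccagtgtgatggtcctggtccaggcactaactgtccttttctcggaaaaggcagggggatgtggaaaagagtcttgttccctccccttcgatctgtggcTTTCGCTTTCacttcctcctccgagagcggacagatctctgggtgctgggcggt
PSMB9, chr6:32853942-32854241, plus strand: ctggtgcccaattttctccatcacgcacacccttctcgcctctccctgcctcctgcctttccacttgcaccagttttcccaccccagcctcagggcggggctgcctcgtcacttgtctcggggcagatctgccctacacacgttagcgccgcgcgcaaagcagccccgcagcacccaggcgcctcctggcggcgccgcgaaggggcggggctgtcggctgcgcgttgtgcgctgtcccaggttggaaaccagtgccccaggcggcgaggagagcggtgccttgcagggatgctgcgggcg
TAP1, chr6:32853655-32853954, minus strand: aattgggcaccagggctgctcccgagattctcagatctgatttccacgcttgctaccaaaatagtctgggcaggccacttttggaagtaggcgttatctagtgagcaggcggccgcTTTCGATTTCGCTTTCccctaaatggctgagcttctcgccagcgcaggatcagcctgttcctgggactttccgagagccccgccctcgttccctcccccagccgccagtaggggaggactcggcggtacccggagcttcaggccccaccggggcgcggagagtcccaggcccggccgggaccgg
PSMB10, chr16:67936801-67937100, minus strand: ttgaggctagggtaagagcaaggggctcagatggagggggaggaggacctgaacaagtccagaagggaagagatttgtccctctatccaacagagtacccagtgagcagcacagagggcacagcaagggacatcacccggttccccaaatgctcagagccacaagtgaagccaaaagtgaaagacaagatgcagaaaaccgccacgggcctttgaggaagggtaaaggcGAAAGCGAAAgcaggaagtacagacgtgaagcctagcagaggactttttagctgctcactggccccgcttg
PSME1, chr14:24135944-24136243, plus strand: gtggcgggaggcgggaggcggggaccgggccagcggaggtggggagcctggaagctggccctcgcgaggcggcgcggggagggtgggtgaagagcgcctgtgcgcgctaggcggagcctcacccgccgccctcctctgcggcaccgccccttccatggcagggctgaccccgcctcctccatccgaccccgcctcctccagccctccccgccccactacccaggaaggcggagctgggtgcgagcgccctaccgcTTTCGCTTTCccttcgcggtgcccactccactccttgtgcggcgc
PSME2, chr14:24146561-24146860, minus strand: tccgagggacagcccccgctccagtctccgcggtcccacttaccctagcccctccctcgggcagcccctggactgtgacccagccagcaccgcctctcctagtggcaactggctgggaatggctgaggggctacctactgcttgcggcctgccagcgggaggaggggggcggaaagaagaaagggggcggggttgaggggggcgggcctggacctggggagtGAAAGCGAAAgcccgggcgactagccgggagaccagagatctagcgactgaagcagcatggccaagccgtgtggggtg
PSMB5, chr14:23035171-23035470, minus strand: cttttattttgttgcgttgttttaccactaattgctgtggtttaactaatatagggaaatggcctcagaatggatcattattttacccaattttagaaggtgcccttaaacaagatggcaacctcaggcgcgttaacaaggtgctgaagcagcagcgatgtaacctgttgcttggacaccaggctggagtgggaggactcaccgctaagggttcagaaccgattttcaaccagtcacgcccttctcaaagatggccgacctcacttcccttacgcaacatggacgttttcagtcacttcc

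The interferon-response match in PSMB8 lies from 4 bases before to 5 bases after that start site, and the match in PSMB10 ends 12 bases before it. In PSME2 the match ends 19 bases before the start site, and in PSME1 it lies at bases 5 to 14 after it. The PSMB9 window holds no match. The window at the upstream PSMB8 start, which is not shown, holds none either, and the same is true of the PSMB5 windows. The start site of PSMB9 is 488 bases from that of TAP1 on the opposite strand, and the TAP1 window between them holds 2 overlapping matches. It also holds 2 matches to the NF-kB consensus. Over all 55 windows of the 44 members with a RefSeq window, 7 held the interferon-response match, 12.7% against 3.57% of all 35114 windows. The other windows with the match belong to PSMA4, PSMB4 and PSMG4. TTCNNNGAA, the gamma-activated site to which STAT factors bind, was in 14.5% of member windows and 7.66% of all windows. TGACNNNGC, the core of the antioxidant response element through which NFE2L1 acts on proteasome genes, was in 27.3% of member windows and 13.3% of all windows. CCAAT, the box bound by NF-Y, was in 43.6% and 34.6%, and GGGCGG, the GC box, in 70.9% and 45.0%. The NF-kB consensus went the other way, in 1.82% of member windows (that of PSMA4) and 5.91% of all windows. These are matches of letters, counted on both strands, and the interferon-response and gamma-activated motifs can share bases.

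Values are FPKM, the fragments assigned to a gene divided by its length and by the fragments of the library. Low values move in steps worth 1 fragment, which puts the libraries at an estimated 12720000 to 14350000 fragments. SRSF10 was at 18.6, 19.5 and 19.8 FPKM in control libraries against 10.6, 10.8 and 10.6 FPKM after knockdown, so that its mean fell by 44.8% (adjusted p = 0.000166 by limma). Genes with at least 1 FPKM in at least 3 libraries were tested, 12191 in all, with limma on log2(FPKM + 1), on which scale all fold changes are given unless a ratio of FPKM is named. A gene was called where its p, adjusted over all of these by Benjamini-Hochberg, was under 0.05. Huh7 cells are known to express liver genes such as ALB and AFP, and in these libraries liver markers were scarce, which goes against the cell line label. Of 17 hepatocyte and hepatoma markers 12 were under 1 FPKM in every library, ALB and AFP among them, while APOH, HNF4A, FGA and FGB were among those above 1 FPKM in every library. Of 9 leukocyte markers, from cells that hold inducible subunits as a rule, 8 were under 1 FPKM in every library. Their summed level was 1.12 to 1.57 FPKM across the controls, with 1.96 to 2.67 FPKM across the knockdown libraries, mostly the integrin gene ITGAM, with PTPRC at 0 to 0.0172 FPKM and MS4A1 listed at 0. ITGAM, the only leukocyte marker tested, was called higher in the knockdown (log2 fold change 0.38, limma adjusted p = 0.0415). Of 7 endothelial and fibroblast markers 6 were under 1 FPKM in every library, and their sum was 4.71 to 5.86 FPKM without and 6.69 to 7.87 FPKM with the knockdown, mostly PECAM1. PECAM1, the only one of these tested, was called higher in the knockdown as well (log2 fold change 0.325, limma adjusted p = 0.0373). The part of other cells in the results was not tested.

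Most proteasome transcripts differed little between the groups, while PSMB8, PSMB9 and PSME1 rose with SRSF10 knocked down. Of 46 tested members 3 rose and 5 fell, 17.4%, where 25.2% of all tested genes were called. Those that rose are all inducible (PSMB8, PSMB9 and PSME1). Those that fell were the 19S subunits PSMD2 and PSMD6, the assembly chaperones PSMD5 and PSMG1, and PSMC3IP. By direction the shares over all tested genes were 12.6% higher and 12.5% lower. The values of the groups did not overlap for 15 of the 46 members, 32.6%, against 42.7% of all tested genes. The median log2 fold change was -0.04 over the tested members and -0.01 over all tested genes. PSMA2 and PSMA6 were under 1 FPKM in every library and were not tested. The testis subunit PSMA8 and the thymus subunit PSMB11 were listed at 0 in every library.

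**Figure D1:**
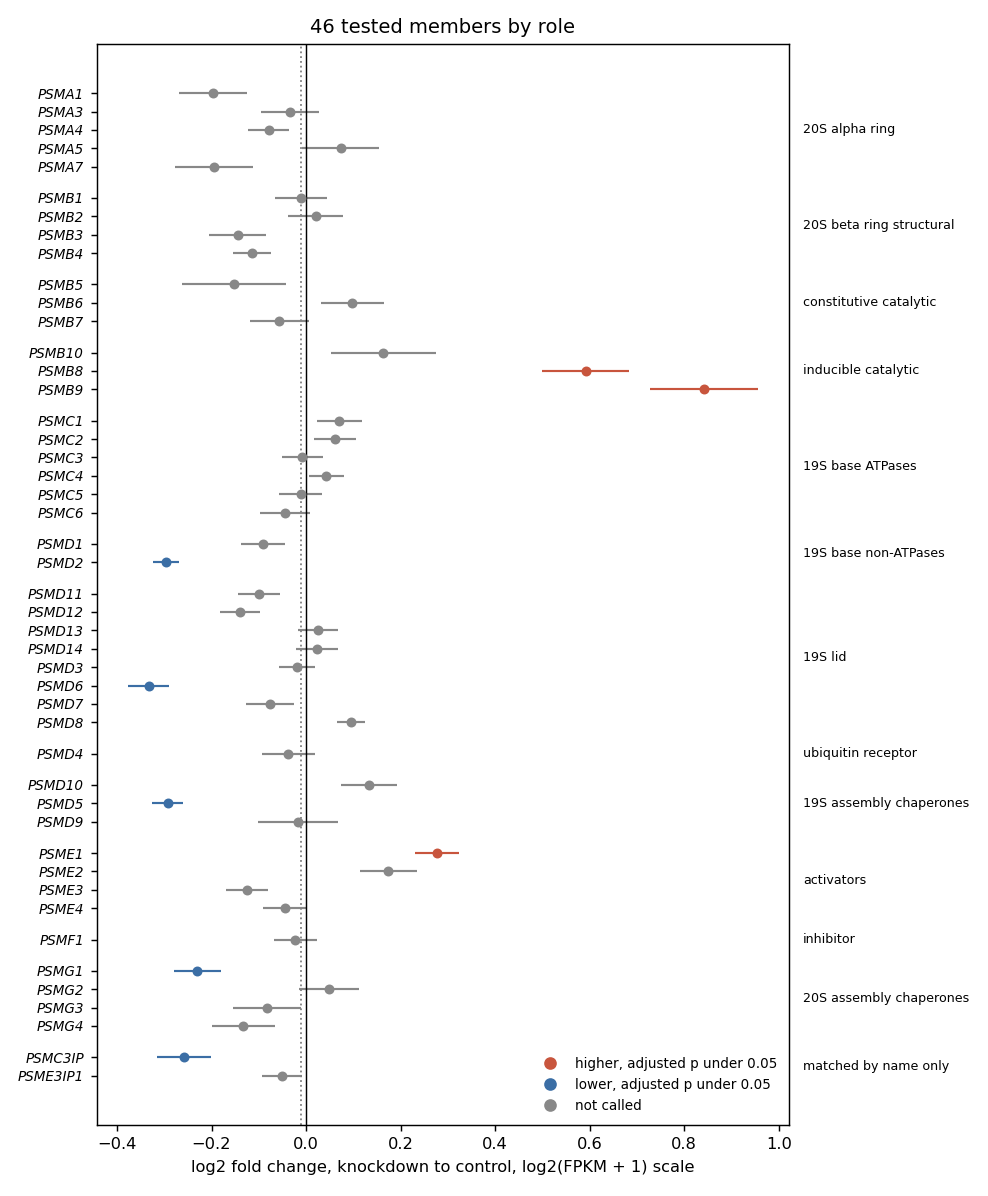
Log2 fold change (knockdown to control, log2(FPKM + 1) scale) of the 46 tested members, grouped by role. Points are limma estimates, bars are 1 standard error, the solid line is 0 and the dotted line is the median of all tested genes. PSMB8, PSMB9 and PSME1 lie to the right, the 5 members called lower lie between -0.33 and -0.23, and the others lie within 0.2 of 0.

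PSMB8, which takes the place of PSMB5, was at 2.88, 2.06 and 2.40 FPKM in control libraries against 4.19, 4.03 and 4.27 FPKM after knockdown. Every knockdown library was above every control, and the knockdown values were closer together than the controls. In bulk RNA, more cells that express a gene and more RNA per cell cannot be told apart. The ratio of means was 1.70, from 2.44 ± 0.41 to 4.16 ± 0.12 FPKM (SD, n = 3 per group; log2 fold change 0.59 ± 0.091 SE, adjusted p = 0.00507 by limma). By the estimated depth these values rest on 78.4 to 124 fragments in a control and 163 to 176 in a knockdown library. PSMB8 (ENSG00000204264) lies on GRCh38 chromosome 6, 32840717 to 32844703, minus strand. Its exons share 618 bases with the antisense gene PSMB8-AS1 and 139 with PSMB9, and without a stated strand setting such reads cannot be told apart. PSMB8-AS1 averaged 0.0102 FPKM across the controls, with 0.137 FPKM across the knockdown libraries.

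PSMB9, which takes the place of PSMB6, was the least abundant of the inducible subunits, at 0.229, 0.283 and 0.177 FPKM without and 1.091, 1.100 and 1.431 FPKM with the knockdown. The ratio of means was 5.26, the highest of the tested members, and on the log2(FPKM + 1) scale the change was 0.84 (SE 0.11, adjusted p = 0.00324 by limma). All controls were under 1 FPKM, so the knockdown libraries alone carried PSMB9 past the filter, which fixes its direction. Few reads carry its level, an estimated 7.4 to 11.0 fragments in a control and 45.9 to 56.0 in a knockdown library. With no filter on low values it was called higher as well, and with a pseudocount of 0.1 in place of 1 the log2 fold change was 1.99. PSMB9 (ENSG00000240065, chromosome 6, 32844136 to 32859585, plus strand) has no coding base that is exonic in another gene.

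PSMB10, which takes the place of PSMB7, was at 1.71, 1.64 and 1.23 FPKM in control libraries against 1.63, 2.12 and 1.73 FPKM after knockdown. The groups overlapped, and the log2 fold change of 0.16 did not pass (95% interval -0.10 to 0.43, limma adjusted p = 0.332). Of its coding bases 58.3% are also exonic in AC040162.1, a protein-coding gene on the same strand, which averaged 0.198 FPKM across the controls, with 0.176 FPKM across the knockdown libraries. PSMB10 lies outside the MHC, on chromosome 16.

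None of the 3 constitutive catalytic subunits was called. PSMB5, the chymotrypsin-like subunit, was at 31.3, 39.7 and 36.0 FPKM without and 27.6, 34.2 and 34.2 FPKM with the knockdown. PSMB6, the caspase-like subunit, was at 29.4, 32.3 and 29.7 FPKM in control libraries against 29.7, 34.6 and 33.8 FPKM after knockdown. PSMB7, the trypsin-like subunit, was at 39.2, 44.9 and 39.4 FPKM across the controls, with 37.6, 41.04 and 39.9 FPKM across the knockdown libraries. The groups overlapped for each of these genes, with log2 fold changes of -0.15 (95% interval -0.41 to 0.11), 0.10 and -0.06. Single libraries moved these values. Without knockdown replicate 1 the PSMB5 value was -0.05, and without control replicate 1 or 2 it was -0.24 or -0.07. The PSMB6 value was 0.16 without knockdown replicate 1 and 0.06 without knockdown replicate 2, and the PSMB7 value was 0.01 without control replicate 2 and -0.02 without knockdown replicate 1.

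**Figure D2:**
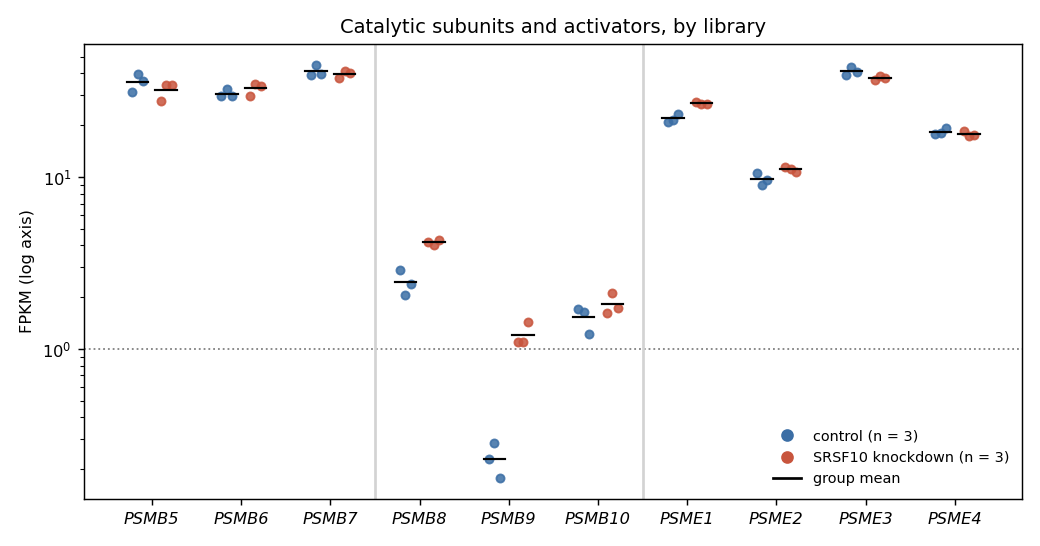
FPKM (log axis) of the constitutive and inducible catalytic subunits and of the activators in each library. Points are libraries, black lines are group means of 3, and the dotted line is 1 FPKM. PSMB9 is at 0.177 to 0.283 FPKM without and 1.09 to 1.43 FPKM with the knockdown, while PSMB5, PSMB6 and PSMB7 stay between 27.6 and 44.9 FPKM.

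Set against its constitutive counterpart, PSMB8 made up 8.42%, 4.93% and 6.25% of the summed FPKM of PSMB8 and PSMB5 in the controls and 13.2%, 10.5% and 11.1% in the knockdown. PSMB9 made up 0.592% to 0.867% of its pair with PSMB6 in the controls and 3.08% to 4.06% in the knockdown. In both pairs every knockdown library was above every control. The ratio of PSMB8 to PSMB5 was 1.92-fold higher in the knockdown and that of PSMB9 to PSMB6 was 4.95-fold higher (exact two-sided permutation p = 0.1 for each, the smallest that 3 against 3 libraries allow, 0.125 adjusted over 5 ratios). By FPKM, constitutive transcripts remained the larger part of each pair in every library. The share of PSMB10 in its pair with PSMB7 was 3.02% to 4.18% in the controls and 4.14% to 4.92% in the knockdown, and the groups overlapped (exact permutation p = 0.3). Of the PSMB10 coding bases 58.3% are exonic in another gene, and of the PSMB7 coding bases 0%. The part of the counting of shared reads in the shares of these pairs was not tested.

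PSME1, the alpha subunit of PA28, rose from 20.9, 21.5 and 23.3 FPKM in the controls to 27.2, 26.5 and 26.5 FPKM in the knockdown. The groups did not overlap, and the ratio of means was 1.22 (log2 fold change 0.28 ± 0.047 SE, adjusted p = 0.00688 by limma). PSME2, the beta subunit of PA28, was at 10.5, 8.96 and 9.58 FPKM in control libraries against 11.4, 11.1 and 10.7 FPKM after knockdown. Its groups did not overlap either, but the log2 fold change of 0.17 did not pass (SE 0.061, limma adjusted p = 0.0787). Without control replicate 1, the highest control, it passed (log2 fold change 0.23, limma adjusted p = 0.0331). PSME1 and PSME2 lie close together on chromosome 14.

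PSME3 and PSME4, the other activators, were not called. PSME3, the subunit of the nuclear activator PA28 gamma, was at 39.4, 43.5 and 40.5 FPKM across the controls, with 36.8, 38.4 and 37.6 FPKM across the knockdown libraries (log2 fold change -0.13, limma adjusted p = 0.0813). The PSME3 groups did not overlap, with every knockdown library below every control. PSME4, the activator PA200, had a log2 fold change of -0.05, and the inhibitor PSMF1 of -0.02. The ratio of PSME1 to PSME3 was 1.34-fold higher and that of PSME2 to PSME3 1.25-fold higher in the knockdown. Both take in the lower PSME3 values of the knockdown. By gene, the ratio of knockdown to control means was 1.22 for PSME1, 1.14 for PSME2 and 0.914 for PSME3. Neither the PSME1 to PSME3 nor the PSME2 to PSME3 ratio overlapped between the groups (exact two-sided permutation p = 0.1 for each, the smallest possible, 0.125 adjusted).

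**Figure D3:**
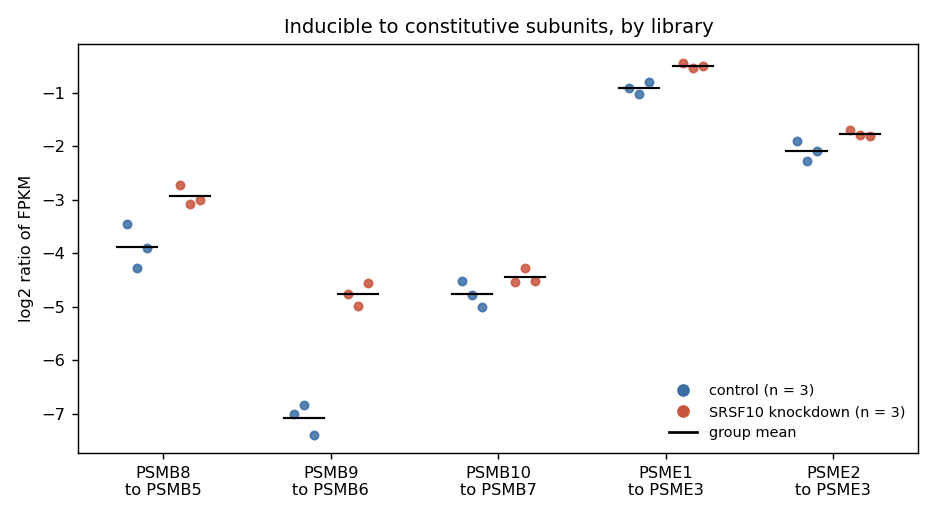
Log2 ratio of FPKM of each inducible catalytic subunit to the subunit it replaces, and of PSME1 and PSME2 to PSME3, by library. Points are libraries and black lines are group means of 3. The knockdown libraries lie above all controls for each pair except PSMB10 to PSMB7.

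Subunits of the constitutive 26S particle, the 20S core with its 19S cap, kept close to their control levels. Of 31 such genes 29 were tested, 0 rose and 2 fell by limma (6.90%). Their log2 fold changes ran from -0.33 to 0.10, with a median of -0.04, and 27 of the 29, or 93.1%, were within 0.2 of 0, against 68.4% of all tested genes. Most members lie at 10 to 100 FPKM, and of all tested genes at those levels, a range chosen after the values were seen, 73.2% were within 0.2 of 0 and 34.1% were called. No tested subunit of the alpha ring (5), of the structural beta subunits (4) or of the 19S ATPases (6) was called. The alpha ring ran from -0.20 for PSMA1 to 0.07 for PSMA5, and the structural beta subunits from -0.14 for PSMB3 to 0.02 for PSMB2. Among them PSMB4 had groups that did not overlap, lower in the knockdown (log2 fold change -0.11, limma adjusted p = 0.0839). The ATPases, which unfold substrates, ran from -0.04 for PSMC6 to 0.07 for PSMC1. The alpha ring summed to 116.5 ± 4.6 FPKM without and 109.2 ± 4.9 FPKM with the knockdown, and the constitutive beta ring to 303.7 ± 15 and 288.9 ± 17 FPKM (SD, n = 3 per group). The 19S base summed to 347.2 ± 4.1 and 332.4 ± 8.6 FPKM, a sum that holds PSMD2, and the lid to 206.6 ± 2.6 and 201.2 ± 4.3 FPKM. Of these sums only that of the base did not overlap between the groups.

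PSMD2, a large scaffold of the 19S base beside PSMD1, fell from 84.5, 83.9 and 86.2 FPKM to 69.2, 68.4 and 69.2 FPKM. All 3 knockdown values lay below the controls and within 1 FPKM of each other, and the mean fell by 18.8% (log2 fold change -0.30 ± 0.028 SE, adjusted p = 0.000983 by limma). PSMD1 had a log2 fold change of -0.09 and was not called. The lid subunit PSMD6 fell from 13.9, 15.04 and 15.1 FPKM to 11.6, 11.5 and 11.3 FPKM, and the mean fell by 22.1% (log2 fold change -0.33 ± 0.043 SE, adjusted p = 0.00284 by limma). The groups did not overlap for PSMD6 either. No exon of another gene overlaps PSMD2, and no coding base of PSMD6 is exonic in another gene.

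PSMD2 (184298709 to 184309054) and PSMD6 (64010549 to 64024010) both lie on chromosome 3, whose other tested genes had a median log2 fold change of -0.195. Over the 57 tested genes within 5 Mb of PSMD2 the median was -0.18, and 23 of them were called lower and 3 higher. PSMD2 ranked below 43 of the 57. Around PSMD6 only 12 genes were tested, with a median of 0.000314 and 3 called lower. PSMD6 was below all 12. The part of the chromosome in these falls was not tested. No other member lies on chromosome 3.

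The assembly chaperone PSMD5, which holds the ATPase PSMC2 during assembly of the base, fell from 22.8, 22.3 and 21.9 FPKM to 18.3, 18.0 and 17.9 FPKM. The mean fell by 19.2% (log2 fold change -0.29 ± 0.033 SE, adjusted p = 0.00169 by limma), on chromosome 9, where the median of the other tested genes was -0.04. The other base chaperones PSMD9 and PSMD10, also called gankyrin, were not called, with log2 fold changes of -0.02 and 0.13. The groups did not overlap for PSMD5, and neither did those of PSMD10, which were higher in the knockdown (limma adjusted p = 0.153). PSMG1, which guides assembly of the alpha ring in a pair with PSMG2, fell from 16.1, 17.8 and 15.8 FPKM to 14.14, 13.96 and 13.79 FPKM (log2 fold change -0.23 ± 0.050 SE, adjusted p = 0.0173 by limma). The knockdown libraries all lay below the lowest control. Leaving out knockdown replicate 2 or 3 ended that call (adjusted p = 0.0562 and 0.0622). Its partner PSMG2 had a log2 fold change of 0.05, and PSMG3 and PSMG4, which form the other chaperone pair, had -0.08 and -0.13. None of these was called, though the PSMG4 groups did not overlap, lower in the knockdown (limma adjusted p = 0.196). PSMC3IP fell from 10.1, 11.7 and 10.4 FPKM to 8.83, 8.68 and 8.82 FPKM (log2 fold change -0.26 ± 0.057 SE, adjusted p = 0.0180 by limma), and its call was lost without knockdown replicate 1, 2 or 3 (limma adjusted p = 0.0533, 0.061 and 0.0562).

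PSMD12 and PSMD8 are lid subunits that were not called but had groups that did not overlap. PSMD12 was at 23.5, 25.7 and 24.6 FPKM without and 22.4, 22.7 and 21.6 FPKM with the knockdown (log2 fold change -0.14, limma adjusted p = 0.0544), and it passed without control replicate 1 (0.0434). PSMD8 was at 46.5, 46.7 and 46.6 FPKM and at 49.5, 51.0 and 49.0 FPKM (log2 fold change 0.09, limma adjusted p = 0.0610). Non-overlap alone was met by 22.0% of all tested genes in the lower and 20.6% in the higher direction.

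Within each group many subunits were highest, or lowest, in the same library. Of the 29 tested subunits of the 26S particle, control replicate 2 held the highest control value for 18 (62.1%), where it did so for 36.4% of all tested genes. In the knockdown, replicate 2 was highest for 20 (69.0%, against 32.5%) and replicate 1 lowest for 20 (69.0%, against 35.4%). The median deviation of the 29 from their group mean was 0.05 on the log2 scale in control replicate 2, 0.05 in knockdown replicate 2 and -0.05 in knockdown replicate 1. Over all tested genes these medians were 0.00493, 3.47e-05 and -0.00104. The median difference of these genes between the groups was -0.04. PSMB8 went the other way in the controls, where replicate 2 held its lowest value.

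**Figure D4:**
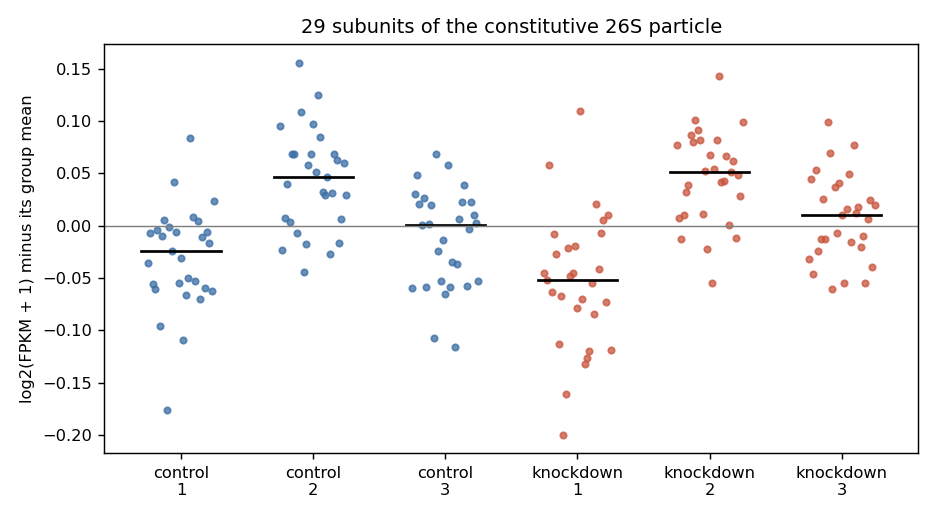
Deviation of log2(FPKM + 1) from its group mean, by library, for the 29 tested subunits of the constitutive 26S particle. Points are genes and black lines are medians. Control replicate 2 and knockdown replicate 2 lie mostly above 0, and control replicate 1 and knockdown replicate 1 mostly below.

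Levels per length differed widely between subunits that are present in equal number in the particle. Over the 31 subunits of the constitutive particle the mean over the 6 libraries ran from 0.605 FPKM for PSMA2 to 90.6 FPKM for PSMB4. PSMA2 and PSMA6, alpha ring subunits that every core needs, were at 0.565, 0.713 and 0.613 FPKM and at 0.802, 0.871 and 0.772 FPKM in the controls. In the knockdown they were at 0.688, 0.472 and 0.577 FPKM and at 0.933, 0.813 and 0.987 FPKM, so the groups overlapped for both. In the GENCODE 29 annotation 97.1% of the coding bases of PSMA2 and 70.4% of those of PSMA6 are also exonic in another gene. On the same strand these are AC010132.3 for PSMA2 and AL121594.1 for PSMA6, which averaged at most 0.0324 FPKM in either group, and PSMA2 also shares exon bases with a pseudogene on the other strand that is listed at 0. PSMA1 shares 88.6% of its coding bases, with AC018523.2 on its own strand, and PSMC1 47.7%, with NRDE2 on the other strand. These 4 are the only constitutive 26S subunits with over 30% shared, and their means, 0.605 to 9.18 FPKM, are below those of the other 27, 12.4 to 90.6 FPKM. The cut at 30% was not planned, and PSMD7, just under it with 28.4% shared, averaged 24.3 FPKM. Of the 5 members with over 50% shared (PSMA1, PSMA2, PSMA6, PSMB10 and PSMD9) none exceeded a mean of 5.36 FPKM. The part of the counting of shared reads in these levels was not tested, and the counting program is not given in the sources used here.

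**Figure D5:**
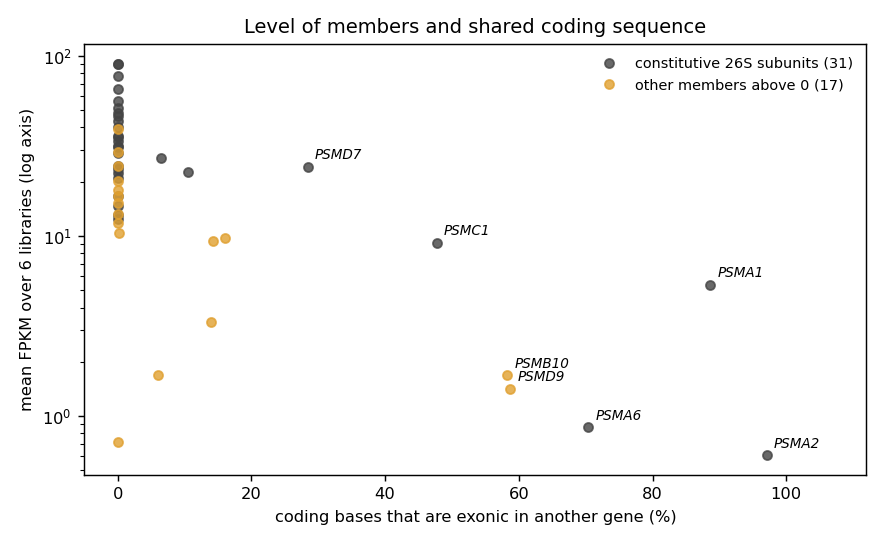
Mean FPKM over the 6 libraries (log axis) against the share of coding bases that are exonic in another gene in GENCODE 29, for the 48 members above 0 FPKM. Points are genes. The 4 constitutive 26S subunits with over 30% shared, PSMC1, PSMA1, PSMA6 and PSMA2, are the lowest of that class.

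The lists of genes other than the members were chosen with earlier results of these data known, so their shares support nothing further. Of 11 tested proteasome partners that lack the PSM name (the ubiquitin receptor ADRM1, the lid subunit SEM1, the core maturation factor POMP and others) 0 rose and 1 fell by limma, 9.09% called against 25.2% of all tested genes. This was UCHL5, a deubiquitinase of the 19S cap (log2 fold change -0.21, limma adjusted p = 0.00800). Of the genes for ubiquitin, its activating enzymes and shuttle factors, 1 of 17 tested rose and 2 fell, 17.6% called against 25.2% of all tested genes. The gene that rose was UBB, which encodes a chain of ubiquitin units, from 169 ± 3.9 to 212 ± 4.1 FPKM (SD, n = 3 per group; limma adjusted p = 0.00113). Of the UBB coding bases 56.2% are exonic in another gene. ZFAND5, a proteasome-binding protein, was among those that fell (log2 fold change -0.14, limma adjusted p = 0.0381), and this call was lost without control replicate 2 or 3 or any knockdown replicate (adjusted p = 0.0689 to 0.124).

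Of 10 tested regulators of proteasome genes 0 rose and 4 fell, 40.0% called lower where 12.5% of all tested genes were. This list was also chosen with earlier results of these data known, so the share describes that choice and supports nothing further. NFYA, a subunit of the CCAAT-binding factor NF-Y, fell from 33.4 ± 1.1 to 27.8 ± 0.84 FPKM (SD, n = 3 per group; log2 fold change -0.25, limma adjusted p = 0.00550). NFE2L1, the factor that raises proteasome genes when the proteasome is inhibited, had a log2 fold change of -0.12 (limma adjusted p = 0.0412). The related NFE2L2 had -0.21 (adjusted p = 0.0246) and NGLY1, the glycanase that NFE2L1 needs to become active, -0.29 (adjusted p = 0.0223). NGLY1 lies on chromosome 3. The NFE2L1 call was lost without control replicate 1 or 3 or any knockdown replicate (adjusted p = 0.0736 to 0.129). The NFE2L2 call was lost without any one knockdown replicate (0.055 to 0.0832), and the NGLY1 call without control replicate 2 or 3 or knockdown replicate 1 or 2 (0.0529 to 0.0701).

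Among 15 listed regulators of the inducible subunits 9 were tested, of which 4 rose and 1 fell, 55.6% called against 25.2% of all tested genes. Earlier results of these data were known when this list was chosen too, so its share supports nothing further. IRF1, the factor that induces PSMB8 and PSMB9 in response to interferon gamma, averaged 1.85 ± 0.064 FPKM without the knockdown and 2.67 ± 0.27 FPKM with it (SD, n = 3 per group; log2 fold change 0.36, limma adjusted p = 0.0148), and 59.5% of its coding bases are exonic in another gene. IRF2 rose by 0.30 on the log2 scale (adjusted p = 0.00744), STAT3 by 0.25 (0.0189) and STAT2 by 0.22 (0.0368). The receptor chain IFNGR1 fell from 52.3 ± 4.9 to 39.1 ± 2.7 FPKM (SD, n = 3 per group; limma adjusted p = 0.0108). The IRF1 call was lost without knockdown replicate 1 or 3 (adjusted p = 0.0529 and 0.0531), the STAT3 call without control replicate 1 or 2 or knockdown replicate 1 or 3 (0.0539 to 0.0676), and the STAT2 call without control replicate 2 or 3 or any knockdown replicate (0.069 to 0.103). NLRC5, the MHC class I transactivator, was under the filter, at a mean of 0.277 FPKM in control libraries against 0.792 FPKM after knockdown, with no overlap between the groups.

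Of 14 partners in peptide supply, a list that includes genes known from earlier results of these data to have risen, 12 rose and 0 fell, with a median log2 fold change of 0.28. The shares over all tested genes were 12.6% higher and 12.5% lower and their median was -0.01, but the list was drawn up with such rises known, so its count and median describe that choice and support nothing further. TAP1, transcribed from the other side of the interval shown above for PSMB9, averaged 2.94 ± 0.205 FPKM without the knockdown and 5.28 ± 0.29 FPKM with it (SD, n = 3 per group; log2 fold change 0.67, limma adjusted p = 0.000937). The 153 tested genes within 5 Mb of PSMB9 had a median of 0.01, with 20 called higher and 17 lower, and 3 of them exceeded PSMB9.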

How the data were processed

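The authors deposited FPKM per gene in a series-wide table and in single-library files. The submitters' processing notes list FastQC 0.11.9, Trim Galore 0.6.5-1 and the build GRCh38. Aligner, counter, annotation release and strand setting were not given in the sources used here. Since FPKM are not counts, limma 3.58.1 in R 4.3.3 was used on log2(FPKM + 1), with a trend on mean expression and group as the only term. The pseudocount understates changes of genes with low values, and FPKM are shares of a total. Members, roles and lists were chosen with earlier results of these data known. Any member could be named, and genes outside the rule came from lists of proteasome partners, ubiquitin genes, regulators and peptide supply, and of cell markers, some of which are not reported here. Depth was the value from 5000000 to 20000000 fragments that put the most low values (under 6.5 fragments) within 0.05 of a whole number, 86.1% to 86.9% of them where chance gives 10%. It is used only for precision and covers counting error alone. Positions and shared exons come from GENCODE 29, in which all 50 members were found, and start windows from RefSeq. The steps were tested on simulated data. Ratios used exact permutation tests over libraries. Alternatives were another filter, pseudocount, scaling or variance model, the replicate number as a block, and leaving out each library. Python 3.11.15 and pandas 2.3.3 were used for tables and matplotlib 3.10.9 for plots.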

Additional observations from a re-analysis of the deposited data

How the results depend on the processing

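The calls of PSMB8, PSMD2, PSMD5, PSMD6 and PSME1 held under every alternative in which the gene could be tested. PSMB9 was also called higher wherever it had a fit. Its knockdown libraries alone carried it past each filter, which fixes its direction there, so those settings say nothing on how firm the call is. With no filter on low values its adjusted p was 0.0119 by limma. PSMB9 had no fit at a filter of 5 FPKM or without any one knockdown replicate, and PSMB8 none at 5 FPKM. With 5 FPKM the members called higher numbered 1, PSME1. Leaving out each library in turn gave 2 to 4 members called higher and 3 to 6 called lower, 894 to 1352 genes called higher and 964 to 1327 called lower over all genes. With no filter 1013 genes were called lower. A pseudocount of 0.1 raised the PSMB9 log2 fold change to 1.99 and that of PSMB8 to 0.76. PSMD12 passed at 5 FPKM (adjusted p = 0.0417), and PSMC3IP did not with no filter (0.0516). The PSMB7 value ran from -0.0895 to 0.00629 as each library was left out, with the sign changed when control replicate 2 was dropped. Quantile normalization and limma without the trend each ended the calls of NFE2L1 and ZFAND5. With no filter the calls of STAT2, STAT3, NFE2L1, NFE2L2, NGLY1 and ZFAND5 were lost as well. Every ratio kept its direction under each scaling and without each library. Over all tested genes the replicate numbers did not pair the libraries (correlations of deviations 0.016, 0.057 and -0.071). The 29 constitutive 26S subunits did deviate by number, with 23 and 24 below their group mean in replicate 1 of control and knockdown and 23 and 25 above it in replicate 2 (15 and 16 in replicate 3). For PSMB5 the replicate block lowered the SE from 0.11 to 0.0436 and the adjusted p from 0.358 to 0.0709. With the replicate number as a block 3 members were called higher and 5 lower, and 1193 and 1146 genes in all, and STAT2, NFE2L1, NFE2L2 and ZFAND5 did not pass. The depth leaves an estimated 7.4 to 11.0 fragments of PSMB9 in a control.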
